A study of Mus musculus with 9 samples.

Results

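Mrap2, Cep162, Nt5e, Bckdhb, Zfp949 and the noncoding RNA gene 9430037G07Rik lie within 4800000 bases of mouse chromosome 9 and had levels in Fabp1 Mttp DKO livers that stood apart from those of the other genotypes. These 6 genes were chosen from their counts in the 3 genotypes, out of 66 annotated genes that start in that window and 41388 in the whole table. Their differences between DKO and the other genotypes are therefore described without a test, and only MttpLKO against control is tested for them. That test is not wholly free of the choice, since a DKO level stands apart more readily where the other genotypes are alike. The libraries are polyadenylated RNA from whole liver of C57BL/6J congenic male mice, all injected with diethylnitrosamine, a liver carcinogen, at 25 mg per kg and 14 days of age and killed at 6 months on chow. Controls carried floxed Mttp alleles (Mttp f/f), MttpLKO mice had lost Mttp in the liver alone, and DKO mice had in addition a germline deletion of Fabp1. Each genotype has 3 libraries, each a pool of RNA from 3 mice, so the spread between libraries is that of pools and not of single mice. The labels name neither the driver of the liver deletion nor how the DKO mice are related to the others, and no group lacked Fabp1 alone. Loss of Fabp1 and any DNA inherited with the DKO line therefore cannot be told apart in these libraries.

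The 6 genes have unlike functions. Mrap2 encodes a small membrane protein that binds melanocortin receptors and tunes their signalling, known best from Mc4r in the hypothalamus and body weight control; the related protein Mrap brings the ACTH receptor Mc2r to the surface of adrenal cells. Nt5e encodes CD73, an ectoenzyme that turns extracellular AMP into adenosine, the ligand of the Adora receptors. Bckdhb encodes the E1-beta subunit of the mitochondrial complex that commits branched-chain keto acids to oxidation. Cep162 encodes a protein of the distal end of centrioles that helps build the transition zone of cilia, and Zfp949 encodes a zinc finger protein. 9430037G07Rik is annotated as a long intergenic noncoding RNA.

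Along the chromosome the genes fall in 3 places. Bckdhb (plus strand, 83925145 to 84124240, as in the deposited tables) is at the near end and far from the other 5. Mrap2 (plus strand, 87144306 to 87184045) and Cep162 (minus strand, 87189577 to 87255536) point at each other with 5.53 kb between their ends, and Cyb5r4 ends 66.5 kb before Mrap2. Nt5e (plus strand, 88327197 to 88372092) ends 4.66 kb from Snx14, and Zfp949 (plus strand, 88548020 to 88571061) and 9430037G07Rik (minus strand, 88595325 to 88599516) lie 24.3 kb apart with Trim43a between them. All 6 had a promoter entry in RefSeq on GRCm38.p6. The 250 bases before the start are shown for Mrap2, which had the largest difference, for its neighbour Cep162 and for Zfp949, whose DKO pools lay close together, with capitals marking AGGTCA, a half-site bound by many nuclear receptors, or its reverse TGACCT.
Mrap2, chr9:87144056-87144305, plus strand: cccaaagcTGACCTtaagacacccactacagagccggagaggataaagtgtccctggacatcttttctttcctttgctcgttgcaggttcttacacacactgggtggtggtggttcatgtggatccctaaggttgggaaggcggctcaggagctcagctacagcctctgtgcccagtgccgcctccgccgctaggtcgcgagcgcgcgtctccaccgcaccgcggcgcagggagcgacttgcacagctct
Cep162, chr9:87255533-87255782, minus strand: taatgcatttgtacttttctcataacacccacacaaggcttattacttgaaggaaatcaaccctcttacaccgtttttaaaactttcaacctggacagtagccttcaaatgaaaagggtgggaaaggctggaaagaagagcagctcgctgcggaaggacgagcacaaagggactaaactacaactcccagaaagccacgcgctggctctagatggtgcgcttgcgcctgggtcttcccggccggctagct
Zfp949, chr9:88547770-88548019, plus strand: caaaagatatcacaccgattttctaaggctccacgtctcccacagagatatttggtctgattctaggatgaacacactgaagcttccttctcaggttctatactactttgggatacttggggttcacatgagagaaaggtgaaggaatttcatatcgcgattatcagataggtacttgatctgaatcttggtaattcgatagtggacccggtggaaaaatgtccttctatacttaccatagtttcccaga
Besides AGGTCA, exact matches were sought on both strands to the TATA box core TATAAA. The letters of the NF-Y binding box, CCAAT, and of the most common E-box, CACGTG, were sought in the same way. Mrap2 held 1 match, TGACCT starting 242 bases before the start, and the windows of Cep162, Zfp949 and Nt5e held none. The first of the promoters listed for Bckdhb held AGGTCA 119 bases before the start and CCAAT 2 times, the other held none, and that of 9430037G07Rik held TATAAA and AGGTCA 1 time each and CCAAT 2 times. Of the 32851 promoters in the table, 14.0% held AGGTCA, 33.8% CCAAT, 12.4% TATAAA and 6.02% CACGTG. CG pairs numbered 16 in Mrap2, 21 in Nt5e, 10 in Cep162 and 6 in Zfp949, against a median of 6 over all promoters.

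Total counts were 23268389 to 23429588 in DKO and 24995426 to 27918197 in the other libraries, so the DKO libraries were the shallowest. Fabp1 (chromosome 6, from 71199827) read 50.3 to 78.0 CPM (counts scaled to library size) in DKO and at least 3379 elsewhere, and Mttp (chromosome 3, from 138089855) read 3.24 to 9.78 CPM in all 6 Mttp-deleted libraries and at least 69.4 in controls, so both labels held in every library. CPM here use library sizes adjusted by the trimmed mean of M values (TMM). The genes deleted by design are thus on other chromosomes than these 6. A low-count filter left 14741 genes to test. All 6 passed it, but Mrap2 did so through its DKO counts alone and had to differ once it passed.

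Mrap2 was almost silent in control and MttpLKO liver and was read in every DKO library. Its counts were 3, 2 and 2 in the controls, 1, 1 and 0 in MttpLKO, and 1204, 341 and 923 in DKO. No library of the other genotypes came near the lowest DKO library. In CPM the DKO libraries held 48.4, 14.5 and 41.4, a mean of 34.8 ± 17.9 (SD, n = 3), with a 3.33-fold spread between the highest and the lowest pool. Without DKO replicate 2, the low pool, the mean was 44.9 ± 4.98 (SD, n = 2). Over the summed counts DKO stood 394-fold above control, with a 95% interval of 191 to 981, and 1403-fold above MttpLKO, with an interval of 388 to 11591; these exact binomial intervals cover counting error only. The other melanocortin genes are given further on.

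Cep162, the gene that runs toward Mrap2 from the far side, was higher in DKO and lowest in the same DKO pool as Mrap2. It read 4.45, 5.83 and 6.11 CPM in controls, 4.97, 4.30 and 5.6 in MttpLKO, and 16.2, 9.71 and 15.8 in DKO. DKO replicate 2 was again the low one, at 0.699 of the DKO mean for Cep162 and 0.418 for Mrap2, but it still lay above all 6 other libraries. A low replicate 2 was not particular to this pair. The DKO pools of Dop1a, an unchosen gene of the window, read 14.7, 9.62 and 15.7 CPM, a 1.63-fold spread against 1.67-fold for Cep162. Cyb5r4 was lowest there too (10.6, 7.71 and 10.8 CPM). Ube2cbp (1.89, 2.64 and 2.02 CPM) and Mthfsl (5.39, 6.60 and 5.91 CPM) were highest there. The DKO mean of 13.9 ± 3.63 CPM was 2.80-fold that of MttpLKO (log2 fold change 1.49 ± 0.22 SE) and 2.54-fold that of control (1.34 ± 0.22 SE). Of the 7636 stretches of 50 bases in the longest Cep162 transcript, 59 also occur in transcripts of other genes (Slc29a3 and Gm37031), and none of those of Mrap2, Nt5e, Bckdhb or Zfp949 do.

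**Figure D1:**
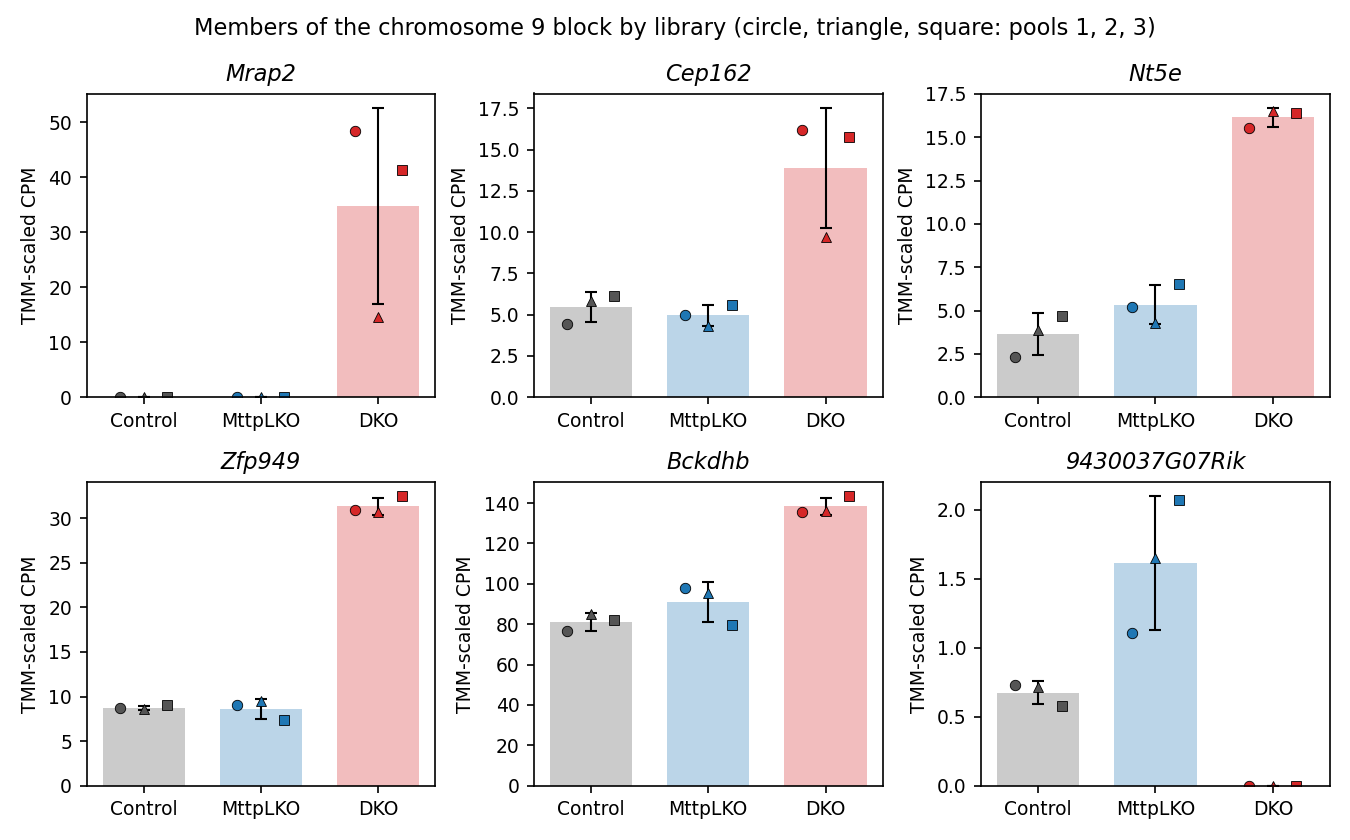
TMM-scaled CPM (y axis, from 0) of the 6 genes in control, MttpLKO and DKO livers; bars are means of 3 pools, error bars SD, and circles, triangles and squares are pools 1, 2 and 3. DKO pools lie above all others for 5 genes and at 0 for 9430037G07Rik, and DKO pool 2 is well below the other DKO pools for Mrap2 (14.5) and Cep162 (9.71), while the DKO pools of Nt5e and of Zfp949 lie within 1.06-fold.

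Nt5e and Zfp949 were higher in DKO by a similar factor in each pool. Nt5e, the adenosine-forming ectoenzyme gene, read 2.34, 3.87 and 4.70 CPM in controls, 5.23, 4.26 and 6.52 in MttpLKO, and 15.5, 16.5 and 16.4 in DKO. The DKO pools lay within 1.06-fold of each other and well above the others. Its DKO mean of 16.1 ± 0.549 CPM was 3.02-fold that of MttpLKO (log2 fold change 1.60 ± 0.23 SE) and 4.42-fold that of control (2.14 ± 0.24 SE). Zfp949 read 8.69, 8.58 and 9.01 CPM in controls, 9.01, 9.45 and 7.38 in MttpLKO, and 30.9, 30.7 and 32.4 in DKO. Control and MttpLKO overlapped, and the DKO pools again lay within 1.06-fold of each other. The mean of 31.3 ± 0.974 CPM was 3.63-fold that of MttpLKO (log2 fold change 1.86 ± 0.12 SE) and 3.57-fold that of control (1.84 ± 0.12 SE).

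Bckdhb, the E1-beta subunit gene, was the most abundant of the 6 and showed the smallest difference. It read 76.4, 85.2 and 82.0 CPM in controls, 97.8, 95.2 and 79.5 in MttpLKO, and 135 (replicate 1), 136 and 143 in DKO. The DKO pools lay above all others, with control and MttpLKO overlapping. The DKO mean of 138 ± 4.30 CPM was 1.52-fold that of MttpLKO (log2 fold change 0.61 ± 0.11 SE) and 1.70-fold that of control (0.77 ± 0.11 SE). The pseudogene Gm29164 lies on the other strand within Bckdhb, and with no strand setting stated their reads cannot be told apart, though Gm29164 itself was given at most 0.852 CPM.

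9430037G07Rik was the 1 gene of the 6 that went down. It held 18, 19 and 16 counts in controls, 29, 45 and 56 in MttpLKO, and 0 in each DKO library. Set against a floor of 3 counts over the DKO group, the level was at least 38.1-fold lower than in MttpLKO and at least 15.8-fold lower than in control. In its longest transcript 948 of 3128 stretches of 50 bases (30.3%) also occur in transcripts of many other genes, so reads of those stretches are uncertain, and the pseudogene Gm29603 overlaps it on the other strand. Trim43a, a tripartite-motif gene 6.5 kb away that was chosen after its values were seen, had 12 counts over the controls, 11 over MttpLKO and 0 over DKO, too few for the test, and 48.1% of its stretches are shared with other genes, Trim43b and Trim43c among them. Below the filter at the other side of the window, Tpbg, also chosen after its values were seen, had 1, 1 and 16 counts over control, MttpLKO and DKO, a ratio to MttpLKO of 18.2 with a 95% counting interval of 2.83 to 763.

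Compared per length, in the authors' RPKM (reads scaled to gene length and library size), the order of the 6 genes was not the same in every genotype. In controls Bckdhb stood at 45.1 ± 2.82 RPKM, Zfp949 at 2.14 ± 0.086, Cep162 at 0.473 ± 0.083, Nt5e at 0.436 ± 0.149, 9430037G07Rik at 0.179 ± 0.019 and Mrap2 at 0.040 ± 0.012. Cep162 and Nt5e overlapped there, and the other neighbours in that order did not. In DKO the order was Bckdhb at 77.2 ± 2.33, Mrap2 at 15.6 ± 8.36, Zfp949 at 7.68 ± 0.277, Nt5e at 1.93 ± 0.056 and Cep162 at 1.21 ± 0.334. Mrap2 was thus the lowest of the 6 in control liver and next after Bckdhb in DKO, although its range of 6.45 to 22.8 RPKM took in that of Zfp949. In MttpLKO the order was Bckdhb at 49.6 ± 3.91, Zfp949 at 2.06 ± 0.206, Nt5e at 0.629 ± 0.152, 9430037G07Rik at 0.425 ± 0.140, Cep162 at 0.422 ± 0.067 and Mrap2 at 0.011 ± 0.009. There 9430037G07Rik overlapped both Nt5e and Cep162, while the lowest Nt5e pool (0.494) lay just above the highest Cep162 pool (0.493).

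MttpLKO against control asks whether Mttp loss alone moved these genes, and none of the 6 passed edgeR's quasi-likelihood test, in a comparison where 0.346% of 14741 genes were called and 1028 had an unadjusted p under 0.05. The closest was 9430037G07Rik, 2.39-fold higher in MttpLKO with no overlap between the groups (log2 fold change 1.26 ± 0.34 SE, edgeR adjusted p = 0.339). How many of all genes tested were likewise without overlap in this comparison was not counted, so nothing is read from it. Nt5e was 1.46-fold higher (0.55 ± 0.24 SE, edgeR adjusted p = 0.681) and Bckdhb 1.12-fold higher (0.16 ± 0.11 SE, edgeR adjusted p = 0.876), with overlapping pools. Cep162 differed by -0.14 ± 0.22 and Zfp949 by -0.024 ± 0.12 in log2 units (edgeR adjusted p = 0.974 and 0.994). Zfp949 turned to 0.070 without MttpLKO replicate 3. Mrap2, with 7 counts over the controls and 2 over MttpLKO, had no difference detectable at this depth, its ratio of 0.281 having a 95% counting interval of 0.0285 to 1.47.

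Between the 6 lie many genes that were silent or whose DKO libraries overlapped the others. Of the 66 genes in the window, 29 had no count in any library, 45 fell below the filter and 21 were tested, 15 of them not among the 6. In DKO against MttpLKO edgeR called 7 of the 21, the 6 chosen genes and Me1, where it called 0.4% of all genes (0.258% higher, 0.142% lower). In DKO against control it called the 6, where it called 0.332% of all genes (0.237% higher, 0.095% lower). In both, 5 of the 6 were higher and 9430037G07Rik was lower. The first count was 3 without MttpLKO replicate 2 and 4 without DKO replicate 2, and the second was 3 without control replicate 2. Since the 6 were chosen for these contrasts, nothing is read from the counts. By overlap alone, DKO lay to 1 side of all 6 other libraries for 8 of the 21. The 6 chosen genes are among these 8, so nothing is read from that share either. Over all genes tested it was 5.24% (2.63% above, 2.62% below). Besides the 6, the 8 held Me1, below, and Ube2cbp, above.

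Me1, the cytosolic malic enzyme gene that makes NADPH for fatty acid synthesis, lies 448 kb before Mrap2. It read 91.4, 83.89 and 77.7 CPM in controls, 105.9, 92.5 and 94.0 in MttpLKO, and 62.1, 56.3 and 53.4 in DKO. The DKO pools lay below all others, the opposite side from its neighbours Mrap2 and Cep162. Its log2 difference was -0.77 ± 0.11 SE from MttpLKO (edgeR adjusted p = 0.0105) and -0.56 ± 0.11 SE from control (edgeR adjusted p = 0.0667). The first call was lost without MttpLKO replicate 2, without DKO replicate 2 and with the 6 compared libraries alone (edgeR adjusted p = 0.054, 0.0585 and 0.0505). The difference from control was called by DESeq2 (adjusted p = 0.000684) and by edgeR without the low-count filter (adjusted p = 0.0308). In sequence, 32.8% of the gene's stretches of 50 bases are shared with Gm48795, Gm7049 and Gm7329. Ube2cbp, a ubiquitin ligase gene, went from 1.07 to 1.62 CPM in MttpLKO to 1.89 to 2.64 in DKO and was not called (log2 fold change 0.74, edgeR adjusted p = 0.45).

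The remaining 13 genes tested in the window overlapped between DKO and the others. Cyb5r4, the nearest tested gene before Mrap2, read 7.71 to 10.8 CPM in DKO and 8.71 to 11.7 in the others. Snx14, a minus-strand gene whose 3′ end lies 4.66 kb from the end of Nt5e, read 11.1 to 13.2 CPM in DKO and 10.2 to 13.3 in the others. Syncrip (16.0 to 24.1 against 18.6 to 21.3 CPM) and Snhg5 (4.58 to 6.36 against 5.58 to 7.60 CPM) lie between Nt5e and Zfp949 and overlapped as well. Genes whose DKO libraries overlapped the others thus lay among the 6 as well as around them. Over the 15 tested genes that were not chosen the median log2 difference was -0.048 from MttpLKO and -0.057 from control, against -0.016 and -0.0019 over all genes tested.

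**Figure D2:**
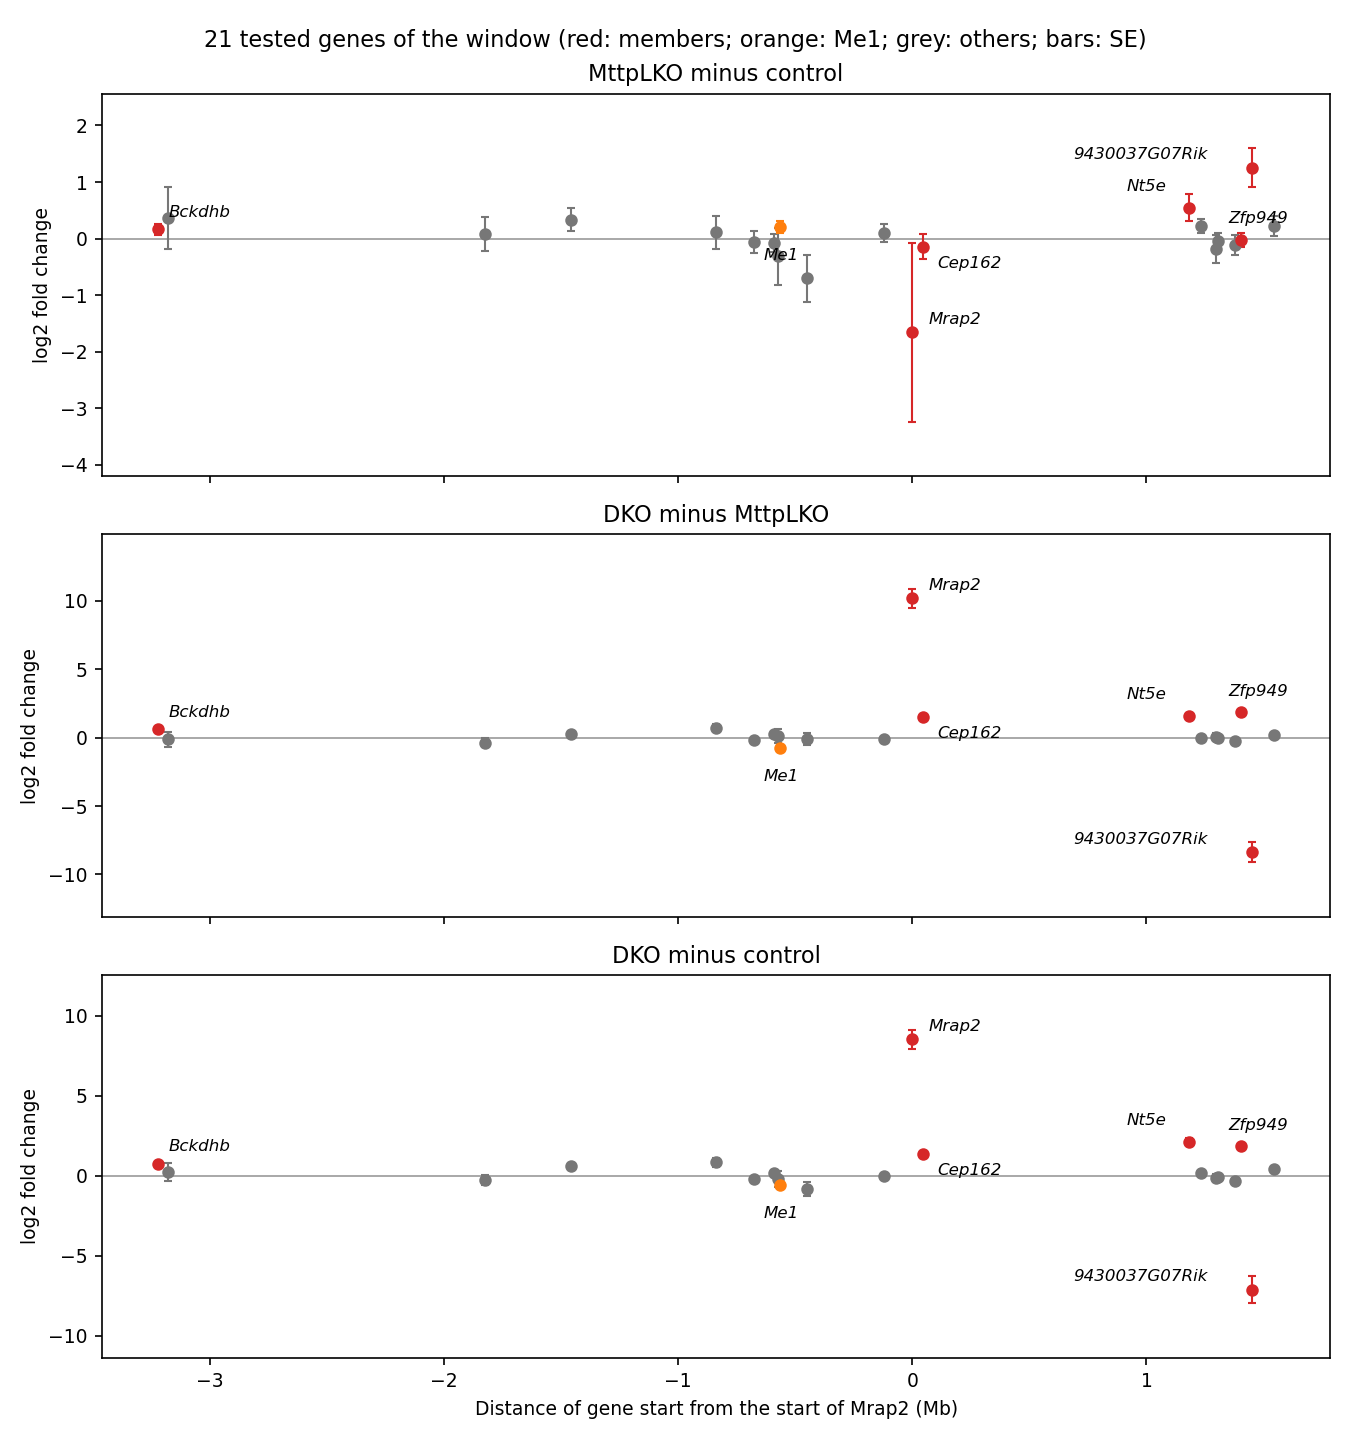
Log2 fold change (y axis, bars SE; the scale differs between panels) of the 21 tested genes against the distance of their start from that of Mrap2 (x axis, Mb), for MttpLKO minus control, DKO minus MttpLKO and DKO minus control. Chosen genes are red, Me1 orange and others grey; the fitted points of Mrap2 and 9430037G07Rik rest on groups near or at 0 counts and are no measured folds, and the grey points run from -0.36 (Tent5a) to 0.74 (Ube2cbp) against MttpLKO and from -0.82 (A330041J22Rik) to 0.85 (Ube2cbp) against control, so some lie as far from 0 as Bckdhb.

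The nearest tested genes outside the window were looked at in the same way. On the near side these were Elovl4, Sh3bgrl2 and Gm27216. Sh3bgrl2, starting at 83548327, read 41.4 to 53.2 CPM in DKO and 30.9 to 35.8 in the others, above all of them, and was not called in either DKO comparison, at 0.55 ± 0.11 SE from MttpLKO and 0.51 ± 0.11 SE from control in log2 units (edgeR adjusted p = 0.0912 and 0.111). DESeq2 called it in both (adjusted p = 0.00391 and 0.0105), and edgeR called it against MttpLKO without the low-count filter (adjusted p = 0.0456) and without DKO replicate 3 (adjusted p = 0.0417). Its difference from MttpLKO was close in size to that of Bckdhb, the nearest of the 6, so the window's limit there is that of the choice of genes. Elovl4, with 0.281 to 0.809 CPM in DKO, and Gm27216 overlapped with other libraries. On the far side Trim43c and Mthfs overlapped, and 9330159M07Rik read 0.563 to 0.762 CPM in DKO against 0.796 to 1.05 in the others, uncalled (edgeR adjusted p = 0.633 and 0.571). Inside the window, Bckdhb on the near side and Mthfsl on the far side (5.39 to 6.60 CPM in DKO and 4.21 to 6.03 in the others) are the outermost genes.

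Elsewhere on chromosome 9, 786 genes were tested and 2 were called in DKO against MttpLKO and 3 in DKO against control. Over all 14741 genes tested, 0.4% and 0.332% were called in these comparisons. Slc35f2, which encodes a solute carrier and starts at 53771535, was called in both, at 3.82 to 4.88 CPM in DKO and 0.845 to 1.62 in the others (edgeR adjusted p = 0.0208 and 0.0288; both calls were lost without some single libraries, with edgeR adjusted p up to 0.106 and 0.169). The others were Apoa4 against MttpLKO, and Igdcc4 and 4930581F22Rik against control. Igdcc4 was also called in MttpLKO against control (edgeR adjusted p = 0.0372), and its DKO libraries overlapped those of MttpLKO.

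**Figure D3:**
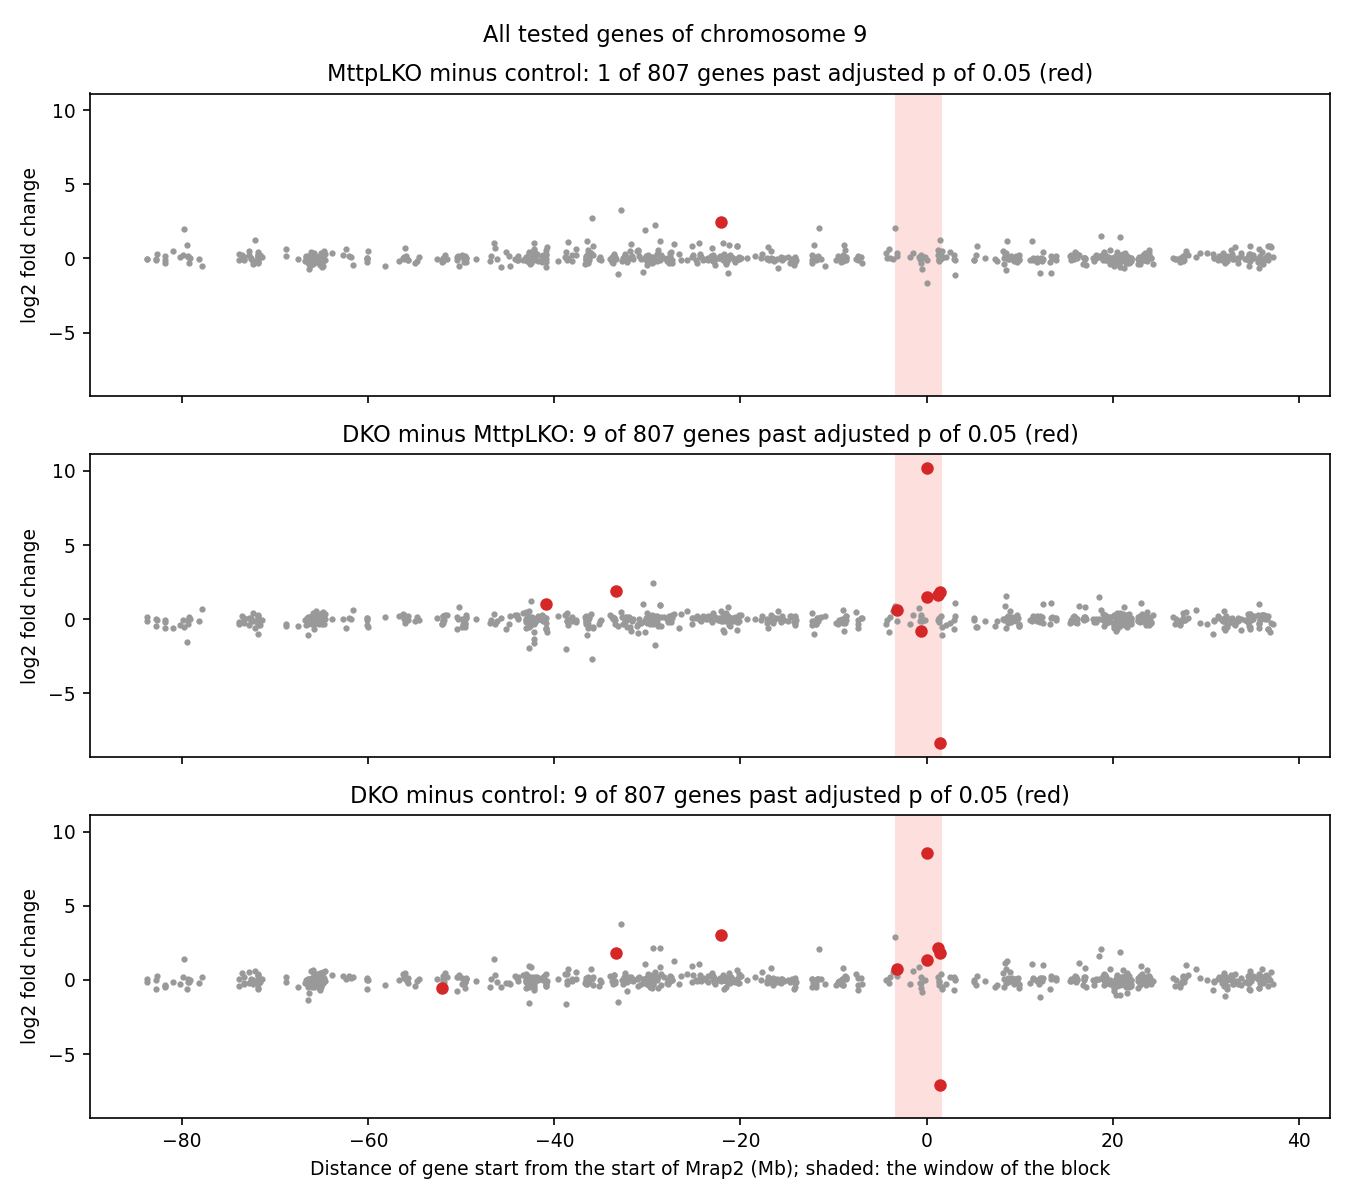
Log2 fold change (y axis) of all 807 tested genes of chromosome 9 against the distance of their start from that of Mrap2 (x axis, Mb) in the 3 comparisons; red points passed an adjusted p of 0.05 in edgeR and the shaded band is the window. In both DKO panels 9 points are red, of which 7 (DKO minus MttpLKO) and 6 (DKO minus control) lie in the band, and in the MttpLKO panel the 1 red point lies outside it. The 6 genes chosen for their DKO levels are among the red points of the band in both DKO panels, so nothing is read from their number. Over all genes tested 0.4% and 0.332% were called.

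The other genes in the pathways of Mrap2, Nt5e, Bckdhb and Cep162 were tested in the DKO comparisons, and of these edgeR called Cpe, against control. The 4 genes themselves were chosen for their DKO levels and are left out of the counts of calls that follow. The list sizes and the median differences of the lists include them. The melanocortin list had 22 of 23 genes in the table and 10 tested. The receptors Mc2r, Mc3r and Mc4r had 0 counts in all 9 libraries, Mc1r had 1, 0 and 2 over control, MttpLKO and DKO, and Mc5r had 1, 0 and 0. Ghsr, the ghrelin receptor, which Mrap2 also binds, had 0, and Pomc, the precursor of the ligands, had 16, 9 and 17. Mrap, the related accessory protein gene, was well expressed at 56.0, 52.2 and 65.3 CPM and was not called in any comparison (edgeR adjusted p = 0.539 against MttpLKO and 0.615 against control for DKO). Cpe encodes carboxypeptidase E, which trims peptide hormone precursors. It read 1.5, 0.828 and 1.27 CPM in controls and 2.29, 3.79 and 4.93 in MttpLKO, and its DKO pools held 8.72, 9.71 and 12.8. The 3 genotypes did not overlap, and DKO was higher than control by 3.12 ± 0.32 SE in log2 units (edgeR adjusted p = 0.00165), while DKO against MttpLKO (1.5, edgeR adjusted p = 0.0642) and MttpLKO against control (1.62, edgeR adjusted p = 0.0797) did not pass. Both passed with DESeq2 (adjusted p = 0.000114 and 0.000217) and without the low-count filter (edgeR adjusted p = 0.00178 and 0.0021). The first also passed with limma-voom (adjusted p = 0.0359) and in edgeR without MttpLKO replicate 3 (adjusted p = 0.0258), and the second in edgeR without MttpLKO replicate 1 (adjusted p = 0.0278). Of the 9 tested besides Mrap2, 3 had an unadjusted edgeR p under 0.05 against MttpLKO (Cpe, Gnas and Mrap) and 2 against control (Cpe and Gnas). The 10 tested genes, Mrap2 included, had a median log2 difference of 0.27 from MttpLKO and 0.24 from control. By value 10 were higher in DKO than in MttpLKO and 0 lower, and 8 were higher than in control and 2 lower.

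In the extracellular adenosine list 20 of 21 genes were found and 16 tested. Of the 15 besides Nt5e, edgeR, DESeq2 and limma-voom called 0 in either DKO comparison, with 4 at an unadjusted edgeR p under 0.05 against MttpLKO and 0 against control. Entpd1 and Entpd8, whose ectoenzymes break down extracellular ATP and ADP, were at 2.98 and 91.9 CPM in DKO against 3.43 and 95.03 in MttpLKO. The adenosine receptor genes Adora1 and Adora2a stood at 27.9 and 2.31 CPM in DKO against 48.5 and 2.90 in MttpLKO (edgeR adjusted p = 0.287 and 0.844), and Adora2b and Adora3 were below the filter. Adk, the kinase that removes adenosine inside the cell, stood at 503 against 608 CPM (edgeR adjusted p = 0.493). The list's median log2 difference was -0.12 from MttpLKO and -0.0033 from control.

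Of 26 branched-chain amino acid genes 25 were tested. Of the 24 besides Bckdhb, edgeR, DESeq2 and limma-voom called 0 in either DKO comparison, with 1 at an unadjusted edgeR p under 0.05 against MttpLKO and 3 against control. The partner of Bckdhb in the E1 enzyme, Bckdha, had means of 412, 394 and 375 CPM in control, MttpLKO and DKO. The E2 and E3 subunit genes Dbt and Dld were at 62.9 and 62.8 CPM in DKO against 64.0 and 59.1 in MttpLKO, and the inhibiting kinase gene Bckdk at 14.5 against 13.8. Ppm1k, the phosphatase gene that activates the complex, had the next largest difference by value, 82.8 against 55.2 CPM, and was not called (log2 fold change 0.59, edgeR adjusted p = 0.468). The list's median log2 difference was 0.056 from MttpLKO and 0.080 from control.

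Of 27 centriole and cilium base genes 26 were tested. Of the 25 besides Cep162, edgeR, DESeq2 and limma-voom called 0 in either DKO comparison, with 1 at an unadjusted edgeR p under 0.05 against MttpLKO and 0 against control. Cep164, Cep83 and Sclt1, whose products anchor centrioles at the membrane, were at 25.9, 6.05 and 4.66 CPM in DKO against 21.1, 6.23 and 5.18 in MttpLKO, and Cep290 at 2.46 against 2.06. The list's median log2 difference was -0.035 from MttpLKO and -0.10 from control. Among 11 tested NADPH genes Me1 was the 1 called in DKO against MttpLKO and none was in DKO against control, where DESeq2 called 2 and 3 had an unadjusted p under 0.05. Nnt, the mitochondrial transhydrogenase gene, was called higher in MttpLKO than in control, at 91.6 ± 4.36 against 44.5 ± 9.6 CPM (edgeR adjusted p = 0.0384), a call that was lost without any 1 of the 6 compared libraries, without DKO replicate 1 and with the replicate number as a block.

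**Figure D4:**
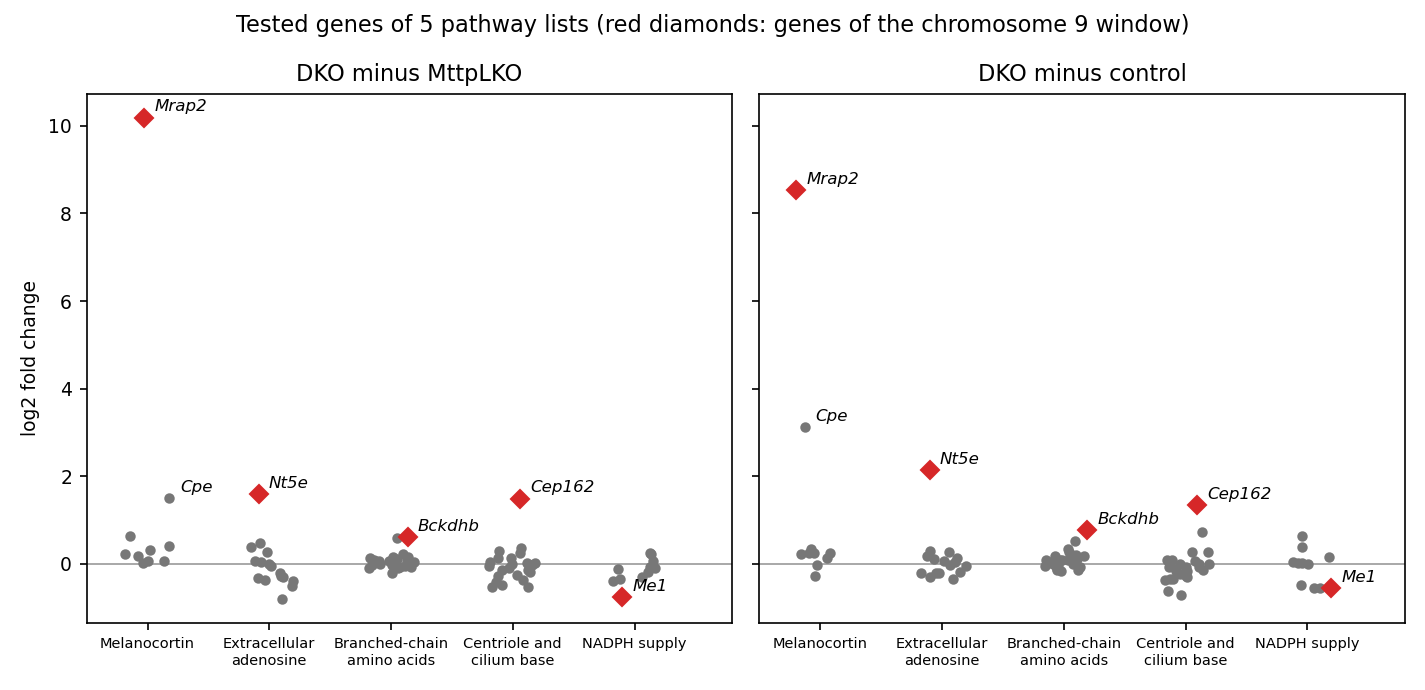
Log2 fold change (y axis) of the tested genes of 5 pathway lists (x axis; points are spread sideways at random) in DKO minus MttpLKO and DKO minus control. Red diamonds are Mrap2, Nt5e, Bckdhb, Cep162 and Me1; among the grey points Cpe is farthest from 0, at 1.5 and 3.12, and others reach as far as Bckdhb and Me1, such as Adora1 at -0.80 against MttpLKO and Fbf1 at 0.73 against control.

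Markers of the cells a liver sample can hold were set beside these values. The 6 hepatocyte markers summed to 54938 to 83177 CPM in DKO and 78495 to 96880 in the others, so the labelled tissue held. Of 6 adrenal cortex genes Mc2r and Cyp11b1 were at 0 in all libraries, of 6 pancreatic endocrine and neuroendocrine genes Ins1, Ins2, Gcg and Sst were, and Cpa1 of the pancreatic acinar genes was. The endocrine genes summed to at most 0.181 CPM in any library, the adrenal genes to 5.79 to 7.08 CPM in DKO and 3.21 to 11.5 in the others, and the acinar genes to 16.3 to 25.8 and 17.2 to 30.4. Nearly all acinar counts were of Cela1, at 2152, 1573 and 1404 over control, MttpLKO and DKO. Nearly all adrenal counts were of Star (282, 287 and 280) and Cyp21a1 (307, 132 and 156). The other acinar and adrenal genes had at most 4 counts in any genotype. The sums for bile duct (75.5 to 102 CPM in DKO, 63.0 to 140 in the others), stellate cell (191 to 230 and 175 to 338), endothelial (135 to 180 and 133 to 194), Kupffer cell (45.7 to 107 and 23.3 to 93.6), B and plasma cell (15.9 to 37.8 and 12.2 to 352) and T and NK cell genes (2.15 to 5.45 and 3.01 to 12.7) overlapped between DKO and the other libraries. Adipocyte genes summed to 22.2, 70.6 and 12.0 CPM in DKO replicates 1, 2 and 3 and to 9.28 to 21.6 in the others, with Lep at 0. Among them Cfd had 461, 113 and 1671 counts over control, MttpLKO and DKO, and Fabp4 had 677, 1035 and 797. Adipoq, Plin1 and Retn had at most 8 in any genotype. Of the 66 markers 45 passed the low-count filter, and edgeR called none of those 45 in either DKO comparison; the endocrine genes were all below the filter, as were most adrenal, acinar and adipocyte genes. Fewer cells of a type and less RNA per cell cannot be told apart in bulk liver, and the part of these cells in the 6 genes' values was not tested.

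By likeness to Mrap2, the log2 CPM (prior count 2) of genes outside the window was correlated with that of Mrap2 over the 9 libraries, as a description. Pearson's r was 0.994 for Htra2, a mitochondrial protease gene on chromosome 6, where Fabp1 also lies (from 83051266 and 71199827). It was 0.991 for Gm11868 on chromosome 4, 0.987 for Tmem98 on chromosome 11, 0.953 for Atf6b on chromosome 17 and 0.950 for Rarres1 on chromosome 3. The lowest were Fabp1 at -0.979, Pank4 at -0.978, Omd at -0.975, Ropn1l at -0.961 and Arfrp1 at -0.957. Mrap2 was near 0 in 6 libraries, so these values mostly rank genes by how cleanly the 3 DKO libraries stood apart. Htra2, like Mrap2, was lowest among the DKO libraries in replicate 2 (226, 170 and 258 CPM, against 9.86 to 10.7 in the others), and Gm11868 was too (2.37, 1.36 and 2.82 CPM, against 0 to 0.0382). Tmem98 was not, at 20.7, 21.2 and 21.6 CPM against 9.70 to 11.1. Of the 6 genes themselves, r with Mrap2 was 0.99 for Zfp949, 0.953 for Cep162, 0.932 for Bckdhb, 0.882 for Nt5e and -0.973 for 9430037G07Rik, values that the choice of genes fixes in part.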

How the data were processed

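Per the file headers, the authors deposited for each of 9 libraries a table of whole-number read counts per Ensembl gene, with CPM and RPKM columns beside them that equal values recomputed from the deposited counts. Per the submitters' processing notes the tools were STAR 2.0.4b, Subread and featureCounts 1.4.5, without saying which did what. Build, annotation and strandedness are not stated in any source used here. Identifiers were given symbols from GENCODE M21 (97.26% matched), and 82.13% of those start at the same base in that GRCm38 annotation.

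Counts were tested with edgeR 4.0.16 (R 4.3.3): filterByExpr with a minimum count of 10, TMM scaling, 1 quasi-likelihood fit of 3 genotype means over 9 libraries, Benjamini-Hochberg adjustment over 14741 genes and a threshold of 0.05. RPKM served only to compare levels between genes. On simulated counts with known changes, 52.9% of 2-fold and 91.3% of 4-fold changes were recovered for MttpLKO against control, with 9 false among 159 calls. These values were 59.6%, 80.2%, 6 and 145 for DKO against MttpLKO, and 59.4%, 94.9%, 10 and 164 for DKO against control. Replicates differed by a chi-square of 19.6 to 64.9 per degree of freedom, so none was a repeat deposit. The named genes were the 6, all tested genes of the window, 3 on each side, Mttp and Fabp1, the 5 most and 5 least like Mrap2, and called members of 5 pathway lists. The members and lists were chosen with earlier results of these data known. Alternatives used RLE scaling, other filters, DESeq2 1.42.0, limma-voom (limma 3.58.1), the compared libraries alone, the replicate number as a block and leaving out each library.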

Additional observations from a re-analysis of the deposited data

How the results depend on the processing

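Without a low-count filter edgeR called 171 genes in MttpLKO against control, 180 in DKO against MttpLKO and 201 in DKO against control, and DESeq2 called 165, 214 and 255, where 51, 59 and 49 were called. With the 6 compared libraries alone the DKO counts were 34 and 78. Leaving out 1 library gave 14 to 54, 22 to 73 and 15 to 100; in the window the ranges were 0 to 0, 3 to 7 and 3 to 6. Same-numbered libraries did not deviate together (r from -0.24 to 0.07 over 9 pairs, none over 0.1), so the numbers were not taken as pairs; with the replicate number as a block 35, 43 and 40 genes were called, and 0, 6 and 6 in the window. The 6 genes were chosen on the DKO comparisons, so passing there is no support for them. Of 17 settings, Bckdhb did not pass in 10 against MttpLKO and 4 against control, Cep162 in 2 and 6, and Nt5e in 2 against MttpLKO; most of these left out 1 library. 9430037G07Rik did not pass in 1 of 16 against control. The 1 reversal was Zfp949 in MttpLKO against control, at 0.070 without MttpLKO replicate 3, in a leave-one-out range of -0.096 to 0.070. A prior count of 0.5 left 4 of the 5 genes most like Mrap2, and a window 1 Mb wider on each side held the same 7 and 6 calls. A gene at 0 in DKO is limited by a floor of 3 counts over its 3 libraries.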

Other observations

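Among the 16 genes of the window with too few counts to test, chosen after their values were seen, Gm5619 had 4 counts and Gm8282 5 over the DKO libraries and 0 in all others, and Gm16202 had 6 in DKO against 1 and 0 in control and MttpLKO. All 3 are annotated as processed pseudogenes. Gm8282 had 0 counts in DKO replicate 2 and Gm16202 had 0 in DKO replicate 3. Others of the 16 did not lean this way. Gm8228 had 8, 13 and 5 counts over control, MttpLKO and DKO, and Gm26461 had 14, 15 and 11.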
